A study of Mus musculus with 8 samples.

Results

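Ribosome biogenesis genes were followed in regulatory T cells (Tregs), the CD4 T cells that restrain immune responses, sorted by flow cytometry from mouse spleen. The genes are a list of 42 that make, modify and assemble ribosomal RNA, chosen by symbol with earlier results of these data known. All 42 were among the 21524 gene symbols of the expression table. RNA sequencing gave 4 libraries labelled IL-2 (41 to 44) and 4 labelled control (45 to 48), and the question was how their transcripts differ after treatment. IL-2 is the cytokine on which Tregs depend. The design text of the series describes a mutein of IL-2 given to mice after fully mismatched BALB/c to C57BL/6 heart or kidney transplantation, together with CTLA-4 Ig, which blocks co-stimulation, and ST2 knockout in Tregs for other work. For the libraries used here the labels name IL-2 or control and the spleen, and do not say which IL-2 was given, its dose and timing, whether CTLA-4 Ig or a graft was present, the strain, genotype, age and sex of the mice, and what the controls received. Whether each library came from its own mouse is not given in the sources used here, so the p-values speak of spread among libraries, which may be technical.

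A ribosome begins in the nucleolus, where RNA polymerase I transcribes the ribosomal DNA into a long precursor. Small nucleolar ribonucleoproteins (snoRNPs) of the box C/D class methylate that precursor and those of the box H/ACA class turn chosen uridines into pseudouridine. Large protein assemblies then cut and fold it into the small (40S) and the large (60S) subunit. Lymphocytes that leave rest enlarge their nucleoli, and the transcription factor Myc is known to raise many of these genes. Ribosomal RNA itself was not analysed here.

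Values are given as normalised reads, recovered from the deposited variance-stabilised log2 values, in which reads are scaled to the library and not to the cell. More of a cell type and more RNA per cell can therefore not be told apart. Depth was estimated at 4953541 to 6399417 reads per library, and 12302 to 12688 genes had reads in a library. Of 9 T cell and Treg markers, all were detected, with summed normalised reads of 43716 to 49242 in IL-2 libraries and 36205 to 37445 in control libraries. Il2ra, a receptor chain for IL-2, carried that difference, averaging 18107 with IL-2 and 6935 in controls, while Cd4 averaged 2523 with IL-2 and 4136 in controls and the other 7 did not pass on the read scale. B cell markers (7 genes, with Ms4a1, Cd79a, Pax5, Ebf1 and Cr2 at or near 0) summed to 100.2 to 215 reads with IL-2 and 383 to 497 in controls, nearly all of it from Cd74 and Cd79b. Myeloid markers (8 genes, with Cd14 at 0 in every library) summed to 803 to 1034 with IL-2 and 1614 to 1885 in controls, mostly Ctss. NK cell markers went both ways: Nkg7 averaged 143 reads with IL-2 and 39.2 in controls, whereas Eomes had 2.22, 0, 26.9 and 0 with IL-2, against 73.8, 53.7, 67.2 and 40.4 in controls, and Klrb1c 1.09, 2.55, 7.95 and 0 with IL-2, against 80.4, 18.3, 21.4 and 25.6 in controls. Xbp1, of the plasma cell list (Mzb1 at 0 throughout), averaged 542 with IL-2 and 320.1 in controls, and Pecam1, of the stromal list, 1058 with IL-2 and 1363 in controls. Genes of DNA replication and mitosis, 14 in all, summed to 15281 to 25458 reads with IL-2 and 7983 to 10198 in controls. The part of these other cells and of cycling cells in the results below was not tested.

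Most of the 42 genes lay somewhat higher with IL-2, few of them by enough to pass the test, and none passed as lower. On the deposited scale Npm1, Mybbp1a and Fbl had the largest differences among the genes that passed, at 1.52-fold to 1.66-fold in normalised reads. Fitted with limma on log2 of normalised reads plus 5, where all 42 could be tested, 10 rose (23.8%) and 0 fell, with 20 higher and 0 lower at an unadjusted p under 0.05. Of the 10777 genes in that fit, 10.9% passed as higher, 9.07% as lower and 19.9% in either direction. The share of all genes at an unadjusted p under 0.05 was not computed, for these counts or for those at that threshold below. Differences were positive for 36 of the 42 genes, against 48.6% of all genes. The median log2 difference was 0.32 for the 42 genes and -0.01 for all genes. Because the 42 were chosen with earlier results of these data known, contrasts with all genes, here and below, are not independent support. The order of the genes that passed depended on the scale. In this fit Polr1e (0.88), Nhp2 (0.74), Fbl (0.71), Mybbp1a (0.71) and Bysl (0.71) had larger log2 differences than Npm1 (0.61).

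The genes that rose there were Fbl, Dkc1, Nhp2, Npm1, Ddx21, Mybbp1a, Bysl, Tsr1, Polr1d and Polr1e. On the deposited log2 scale, with genes of few reads left out, 26 of the 42 were tested and 8 rose (30.8%), while 0 fell and 14 were higher and 0 lower at an unadjusted p under 0.05 (limma). There the background was 16.8% higher, 14.6% lower and 31.4% in either direction, so the share called in either direction was close to that of all genes. Those 8 were 7 of the same genes, without Nhp2, Bysl and Polr1e, which had too few reads for that filter, and with Ncl in addition. Without any filter, 9 of the 42 rose and 0 fell (limma), against 7.52% of 14904 genes higher and 6.49% lower. Every IL-2 library lay above every control library for 14 of the 42 genes (33.3%) and below for 0, against 13.0% and 10.9% of the 10777 genes. Without IL-2 library 41, the 10 rises on the read scale became 6, and leaving out any other library gave 7 to 11.

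**Figure D1:**
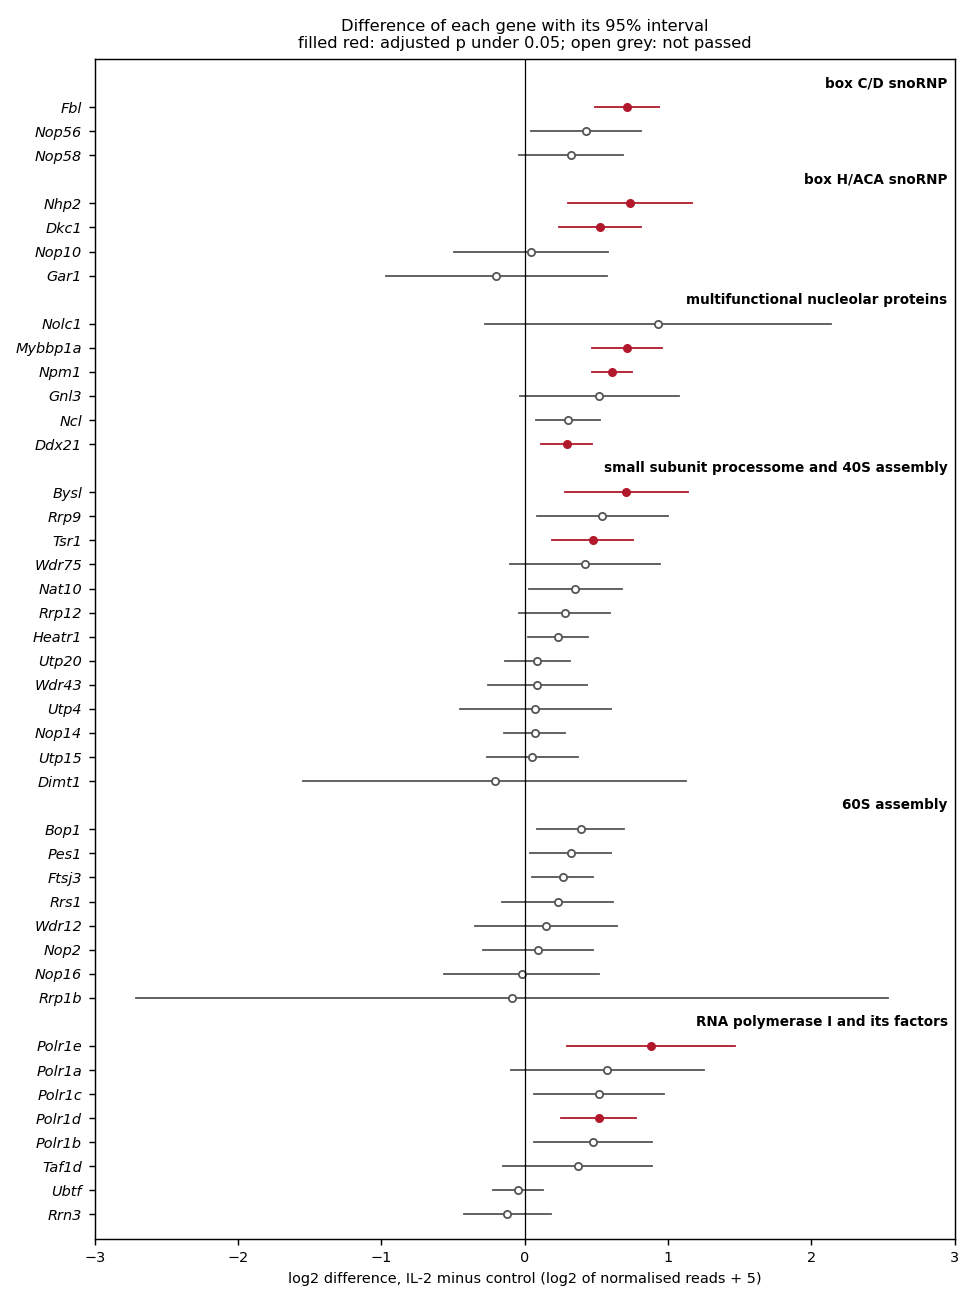
Log2 difference of each of the 42 genes, IL-2 minus control, on the log2 scale of normalised reads plus 5, with limma's 95% interval as a line. Filled red points are the 10 genes with an adjusted p under 0.05; the 36 positive differences lie right of the zero line, and the intervals of Rrp1b, Dimt1 and Nolc1 are the widest.

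The promoters of these genes were searched for the letters CACGTG, the E-box bound by Myc and related factors, because many of them lay higher together. RefSeq sequences of 250 bases before to 50 after the transcription start (build GRCm38.p6) matched 37 of the 42 genes, with 45 start sites. Fbl, Npm1, Rrp12, Rrs1 and Bop1 had no such sequence and were not searched, so Fbl and Npm1, which rose, are missing from the counts below. The motif reads the same on both strands. It was found in 8 of the 37 (21.6%), in 1018 of the 8479 genes of the read-scale fit that had a promoter (12.0%) and in 8.09% of all 27025 genes with one. Windows of 26 bases around each of the 9 matches follow, 5′ to 3′ on the gene's own strand, with the motif in capitals.
Nop2, chr6:125131813-125131838, plus strand, motif starting 60 bases before the start: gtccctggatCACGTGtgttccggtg
Utp4, chr8:106893645-106893670, plus strand, motif starting at base 16 of the transcript: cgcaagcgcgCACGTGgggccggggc
Utp20, chr10:88826765-88826790, minus strand, motif starting at base 38 of the transcript: gcggcactaactaCACGTGaggaaaa
Pes1, chr11:3963967-3963992, plus strand, motif starting at base 3 of the transcript: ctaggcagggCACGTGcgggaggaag
Mybbp1a, chr11:72441351-72441376, plus strand, motif starting at base 41 of the transcript: gactgtcttctgagccCACGTGtttg
Tsr1, chr11:74898094-74898119, plus strand, motif starting at base 25 of the transcript: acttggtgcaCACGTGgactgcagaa
Rrn3, chr16:13780474-13780499, plus strand, motif starting 215 bases before the start: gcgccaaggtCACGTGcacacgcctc
Rrn3, chr16:13780641-13780666, plus strand, motif starting 48 bases before the start: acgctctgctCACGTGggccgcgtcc
Wdr43, chr17:71616222-71616247, plus strand, motif starting at base 18 of the transcript: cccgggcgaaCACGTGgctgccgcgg
Of the 9 matches, 6 lay within the 50 transcribed bases after the start, where 13.5% of the matches of tested genes lay. It was present in 2 of the 8 rising genes with a promoter (25.0%, Mybbp1a and Tsr1) and in 6 of the 29 others (20.7%), Rrn3 with 2 matches among them. Across all genes of the read-scale fit it was present in 112 of 932 genes higher with IL-2, in 76 of 759 lower and in 830 of 6788 that did not pass. These matches describe letters in a window, and binding was not measured.

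Among the box C/D proteins, the methyltransferase gene Fbl (fibrillarin) rose. Its libraries held 651, 691, 603 and 634 normalised reads in IL-2 libraries, against 363, 383, 379 and 441 in control libraries, so the groups stood well apart. It was 1.65-fold higher, and the limma log2 difference on the deposited scale was 0.35 ± 0.05 (SE, adjusted p = 2.56e-04). Its scaffold partners Nop56 and Nop58, which clamp the snoRNA and bring fibrillarin to its target, overlapped between groups. Nop56 had 799, 726, 803 and 540.1 reads with IL-2 and 593, 624, 562 and 365 in controls (limma adjusted p = 0.0752), with libraries 44 and 48 the lowest of their groups. Without IL-2 library 44, Nop56 passed (log2 difference 0.29, limma adjusted p = 0.0190), and without control library 48 its difference was 0.14, against 0.22 with all libraries (limma adjusted p = 0.199). Nop58 had 515, 731, 540.1 and 486 reads with IL-2, against 553, 519, 385 and 362 in controls (limma adjusted p = 0.165), and its log2 difference had a 95% interval of -0.02 to 0.33. Whether Fbl differed from its partners was not tested.

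The box H/ACA core holds the pseudouridine synthase dyskerin, encoded by Dkc1, with the small proteins Nhp2, Nop10 and Gar1. Dkc1 had 387, 455, 478 and 386 normalised reads in IL-2 libraries and 310.4, 339.8, 276 and 256 in controls, with no overlap and a fold of 1.44 (limma adjusted p = 0.0101). Nhp2 had 317, 203, 192 and 215 reads with IL-2, against 160.3, 131, 109 and 143 in controls, and passed on the read scale (log2 difference 0.74 ± 0.20 SE, limma adjusted p = 0.0206). It did not pass without IL-2 library 41 (adjusted p = 0.0613) or without control library 47 (limma adjusted p = 0.0575). Gar1 and Nop10 had few reads and did not pass. Gar1 had 31.6, 16.6, 51.9 and 45.6 reads with IL-2 and 46.2, 41.6, 40.9 and 30.9 in controls, and its interval on the read scale, -0.97 to 0.57, was wide. Nop10 averaged 106 ± 22.2 reads with IL-2, against 104 ± 27.8 in controls (SD, n = 4 each; limma adjusted p = 0.932 on the read scale).

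One assembly factor of these particles rose by a larger fold than the core genes, a difference that was not itself tested. Naf1, which holds the place of Gar1 while H/ACA particles are assembled, had 237, 231, 244 and 214 normalised reads in IL-2 libraries, against 74.4, 84.5, 80.5 and 72.4 in control libraries. It was 2.97-fold higher without overlap (log2 difference 1.51 ± 0.17 SE on the read scale, limma adjusted p = 7.56e-05). No control library reached the level that the filter of the deposited scale asks for, so that fit is not used for Naf1; without a filter it passed there too (limma adjusted p = 1.40e-04). Of the 10 snoRNP assembly factors listed, Naf1 alone passed and 0 fell. That 1 rise among 10 was close to the 10.9% of all genes that passed as higher, while 9.07% passed as lower. At an unadjusted p under 0.05, 3 of the 10 were higher and 0 lower (limma, read scale). Shq1, the chaperone of dyskerin and on the same list, did not pass, at 58.4 ± 25.9 reads with IL-2, against 44.3 ± 18.5 in controls (SD, n = 4 each; limma adjusted p = 0.548 on the read scale).

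Among the proteins that make up much of the nucleolus and act at several steps, Npm1 and Mybbp1a had larger differences on the deposited scale than the other 24 genes tested there. Npm1 encodes nucleophosmin, a histone and ribosome chaperone. Its reads were 5012, 4964, 4949 and 4981 in IL-2 libraries and 3215, 3599, 3002 and 3271 in control libraries, a rise of 1.52-fold without overlap (log2 difference 0.51 ± 0.05 SE by limma, adjusted p = 2.92e-05). The 4 IL-2 values were almost identical, with a coefficient of variation of 0.546%, against 7.56% in controls. Npm1 has processed copies elsewhere in the genome, and Salmon divides reads shared with them by estimation, so its level is uncertain to that extent.

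Mybbp1a, a nucleolar binding partner of Myb proteins that takes part in pre-rRNA processing, had 1509, 1463, 1403 and 1043 normalised reads with IL-2, against 828, 775, 828 and 834 in controls. It is one of the genes with a printed E-box match. The controls lay close together and library 44 was the lowest of the IL-2 group, yet above all of them (1.66-fold, limma adjusted p = 5.65e-04). The RNA helicase gene Ddx21, whose product couples polymerase I transcription to processing, had 2719, 2975, 2946 and 2408 reads in IL-2 libraries and 2159, 2341, 2380.2 and 2110.1 in controls. That small rise of 1.23-fold passed (limma adjusted p = 0.0160), but not without IL-2 library 43 (adjusted p = 0.0514).

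Ncl, the gene of nucleolin, a major nucleolar RNA-binding protein, passed on the deposited scale and not on the read scale. It had 1725, 2238, 1997 and 1641 normalised reads with IL-2, against 1435, 1623, 1658 and 1413 in controls, and the groups overlapped. Its adjusted p was 0.0426 on the deposited scale and 0.0594 on the read scale (limma). The call was also lost when each of libraries 42, 43, 45, 46 and 48 was left out, with adjusted p from 0.0551 to 0.111. Nolc1, which encodes the phosphoprotein Nopp140 that shuttles snoRNPs, scattered most of the genes tested on the deposited scale, with 589.9, 884, 514 and 218 reads in IL-2 libraries, against 398, 606, 242 and 70.9 in controls. Libraries 42 and 46 were high and libraries 44 and 48 low, and the difference did not pass (limma adjusted p = 0.215). Gnl3, the gene of the GTPase nucleostemin, averaged 205 ± 26.5 reads with IL-2, against 148 ± 52.1 in controls (SD, n = 4 each; limma adjusted p = 0.182 on the read scale).

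**Figure D2:**
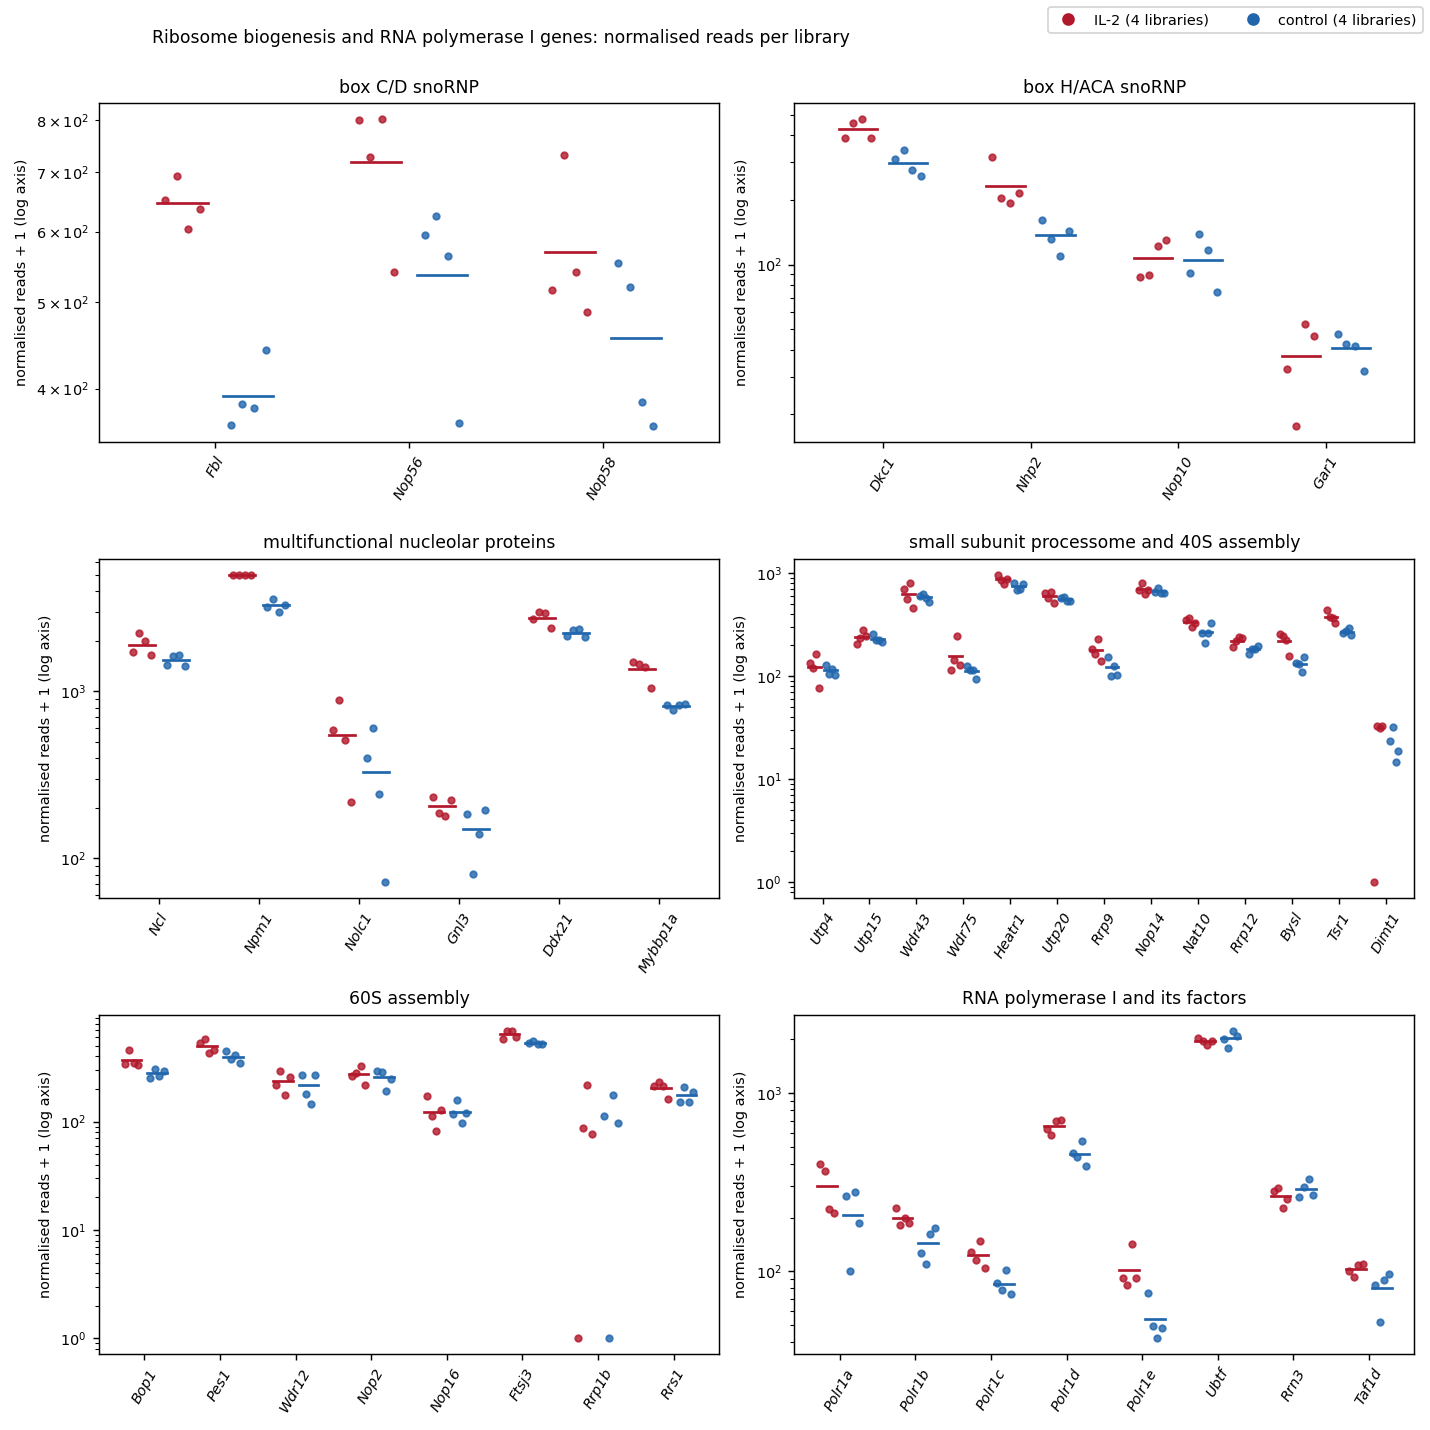
Normalised reads plus 1 of each of the 42 genes in every library, on a log axis, in 6 panels by role; red points are the 4 IL-2 libraries, blue points the 4 control libraries, and bars the group means (none for Dimt1 and Rrp1b, listed at 0 in a library). Fbl, Dkc1, Nhp2, Npm1, Ddx21, Mybbp1a, Bysl and Tsr1 show red points wholly above blue ones, whereas Ubtf and Rrn3 overlap.

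Small subunit genes gave 2 rises among 13 on the read scale (15.4%, against 10.9% of all genes), Tsr1 and Bysl. Tsr1, a GTPase-like factor on the cytoplasmic pre-40S particle, had 442, 375, 365 and 327 normalised reads with IL-2, against 261, 276, 289.5 and 249 in controls. Tsr1 is the other rising gene with a printed E-box match. The groups did not overlap (1.40-fold, limma adjusted p = 0.0165 on the deposited scale), and without IL-2 library 41 the adjusted p was 0.0511. Bysl, whose product bystin is needed to release the 40S precursor from the nucleus, had 256, 243, 223 and 155 reads in IL-2 libraries and 133, 129, 108 and 153 in controls (1.68-fold, limma adjusted p = 0.0236 on the read scale). The lowest IL-2 library, 44, was just above the highest control, 48. That call was lost without IL-2 library 41, 42 or 43 or control library 47, with adjusted p from 0.0552 to 0.0712.

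Among the small subunit genes of this list, those of the early processome, which binds the precursor during its transcription, gave no call. The processome genes Utp14a and Utp18, of a further list, rose and are given below. Heatr1, a scaffold that also aids polymerase I transcription, had 968, 854, 791 and 883 normalised reads with IL-2, against 803, 689, 698 and 784 in controls (limma adjusted p = 0.0851). The cytidine acetyltransferase gene Nat10 had 349.6, 369, 303 and 324 reads with IL-2 and 261, 209, 264 and 324 in controls (limma adjusted p = 0.0973), and passed without control library 48 (adjusted p = 0.0496), where leaving out the others gave 0.0965 to 0.251. Utp15 and Wdr43, of the subcomplex that first joins the precursor, and Utp20 and Nop14, of later scaffolds, had log2 differences of 0.02, 0.05, 0.05 and 0.04 on the deposited scale. The 95% interval of Nop14 was -0.08 to 0.16 and that of Utp20 -0.07 to 0.16. Utp4 and Wdr75 of that first subcomplex, the U3 snoRNP protein gene Rrp9 and the export factor gene Rrp12 were tested on the read scale alone, where their log2 differences were 0.07, 0.42, 0.54 and 0.28 and none passed. The rRNA dimethyltransferase gene Dimt1 was listed at 0 in IL-2 library 41, with 32.2, 30.1 and 31.5 normalised reads in the other IL-2 libraries and 22.7, 31.3, 13.6 and 17.8 in controls.

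Large subunit genes gave 0 calls with limma among the 6 tested on the deposited scale and the 8 on the read scale, with on each 3 higher and 0 lower at an unadjusted p under 0.05. Those 3 were Bop1, Pes1 and Ftsj3. Of all genes, 16.8% passed as higher on the deposited scale and 10.9% on the read scale. Bop1 and Pes1 encode partners in the PeBoW complex, which with Wdr12 processes the 60S precursor. Bop1 had 337, 458, 344 and 332 normalised reads in IL-2 libraries and 251, 306, 262 and 292 in controls, without overlap (1.32-fold, limma adjusted p = 0.0565). Pes1 had 531, 579, 426 and 456 with IL-2, against 448, 376, 415 and 348 in controls, which overlapped by 1 library each (limma adjusted p = 0.0808). Wdr12, the remaining partner, averaged 236 ± 49.7 reads with IL-2, against 216 ± 64.2 in controls (SD, n = 4 each; limma adjusted p = 0.687).

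Ftsj3, an rRNA methyltransferase gene, had 581, 691, 693 and 610.3 normalised reads with IL-2, against 531, 559.9, 524 and 519.6 in controls, again without overlap (limma adjusted p = 0.0558), but passed once IL-2 library 41 was left out (limma adjusted p = 0.0415, against 0.0602 to 0.138 without each of the others). Nop2, which encodes another rRNA methyltransferase, and Rrs1, an assembly factor of the 5S particle, had log2 differences of 0.04 and 0.08 on the deposited scale. Nop16 averaged 123 ± 37.5 reads with IL-2, against 122 ± 25.2 in controls (SD, n = 4 each). Rrp1b, a nucleolar partner of protein phosphatase 1, was listed at 0 in IL-2 library 41 and in control library 46, and elsewhere ranged from 76.4 to 216 reads with IL-2 and from 96.2 to 175 in controls.

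Of the 8 RNA polymerase I genes, 2 subunit genes rose on the read scale (25.0%, against 10.9% of all genes). The initiation factor genes Ubtf and Rrn3 had differences near 0, and whether these differed from the subunits was not tested. Polr1d, a small subunit shared with RNA polymerase III, had 625, 579, 692 and 706 normalised reads in IL-2 libraries, against 461, 437, 535 and 388 in controls. It rose 1.43-fold without overlap (limma adjusted p = 0.00556). Polr1e, the gene of the subunit PAF53, had 90.0, 82.4, 141 and 91.0 reads with IL-2 and 74.6, 48.0, 40.9 and 47.0 in controls, the largest fold of the 42 genes at 1.92 but on few reads. It passed on the read scale (limma adjusted p = 0.0372), not on the deposited scale without a filter (adjusted p = 0.0588), and lost its call when each of libraries 41, 43, 44, 46, 47 and 48 was left out (adjusted p from 0.0587 to 0.110).

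The genes of the catalytic subunits did not pass. Polr1a, the largest subunit, had 397, 364, 223 and 212 normalised reads with IL-2, against 263, 98.9, 276 and 185 in controls, and control library 46 was far below the rest (limma adjusted p = 0.176). Polr1b, the second-largest, had 227, 179.6, 198 and 185 reads in IL-2 libraries and 125, 108, 162 and 173 in controls. All 4 IL-2 values were above all 4 controls (1.39-fold), with a limma adjusted p of 0.0998 on the read scale. Polr1c, also shared with polymerase III, did not overlap either, at 126, 114, 147 and 103 reads with IL-2 and 85.2, 76.9, 101 and 73.6 in controls (limma adjusted p = 0.105 on the read scale).

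Ubtf and Rrn3 were the 2 genes with a negative difference on the deposited scale. Ubtf encodes the factor UBF, which keeps active ribosomal DNA open, and had 2045, 1966, 1851 and 1965 normalised reads with IL-2, against 1997, 1788, 2242 and 2077 in controls. The groups lay on top of each other (limma adjusted p = 0.696), and the 95% interval of the log2 difference on the read scale was -0.22 to 0.13. Rrn3, the gene of TIF-IA, the growth-regulated factor that makes polymerase I competent to start, had 282, 292, 226 and 254 reads with IL-2, against 259.6, 296, 326 and 267 in controls (limma adjusted p = 0.564), and its read-scale interval was -0.42 to 0.18. Both of its promoter matches to the E-box are printed above. Taf1d, a subunit of the selectivity factor SL1, had 98.6, 92.3, 107 and 108 reads in IL-2 libraries and 82.4, 50.9, 88.0 and 95.9 in controls, with only library 46 set apart (limma adjusted p = 0.317 on the read scale).

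The libraries differed among themselves in a way that many of these genes shared. IL-2 library 44 was the lowest of its group for 18 of the 42 genes (42.9%), against 25.9% of all genes in the read-scale fit. Control library 48 was likewise the lowest of its group for 18 (42.9%, against 23.8% of all genes). The summed reads of the 42 genes were 25656, 26697, 25786 and 23005 in IL-2 libraries 41 to 44, and 19996, 20175, 19723 and 18876 in control libraries 45 to 48, so both libraries also had the lowest sums. The 42 genes made up 0.437% ± 0.0245 of the reads of IL-2 libraries, against 0.352% ± 0.0114 in controls (SD, n = 4 each). Abundant genes weigh most in these sums, and Npm1 alone averaged 4977 reads with IL-2 and 3272 in controls. Libraries 44 and 48 had the highest sums of their groups for the 14 proliferation genes, 25458 in library 44 and 10198 in library 48. Without library 44 the deposited scale gave 9 calls among the 42 genes, and the read scale 11.

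**Figure D3:**
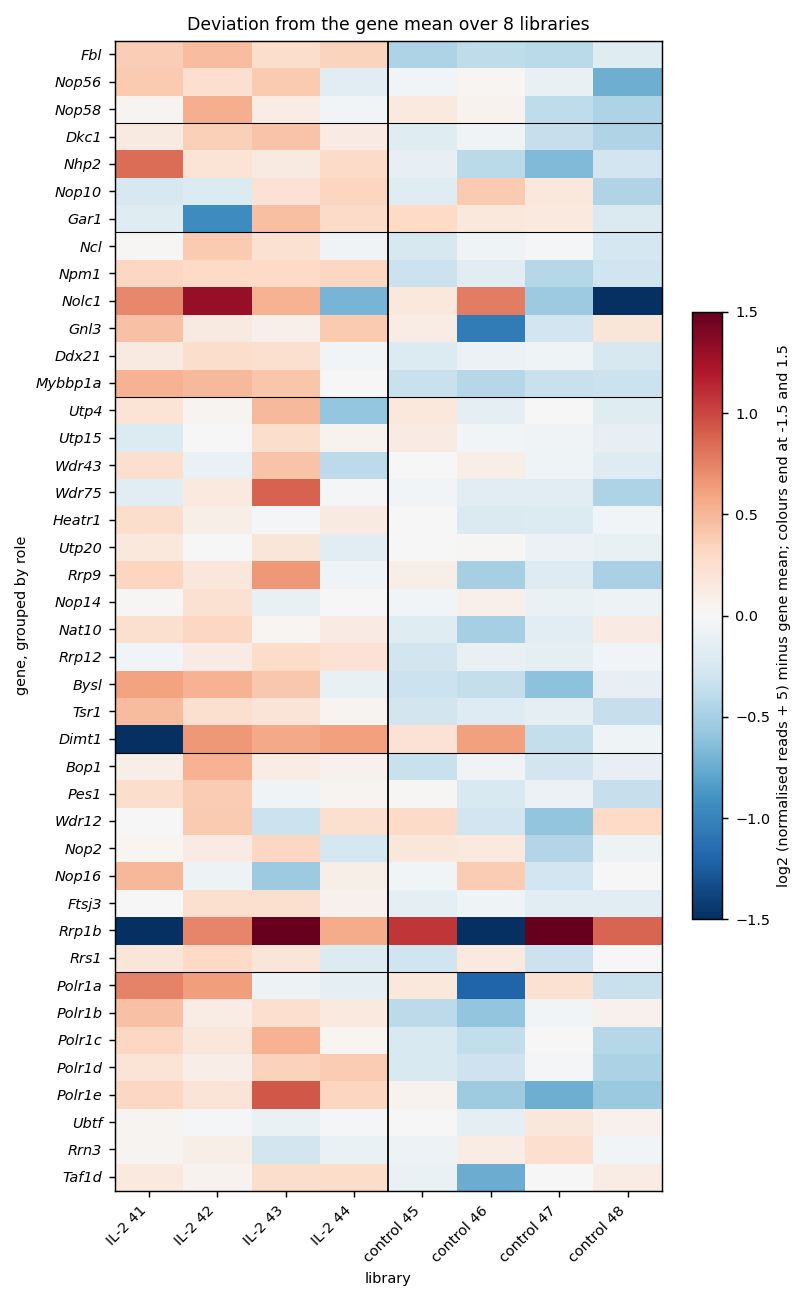
Deviation of log2 (normalised reads plus 5) from each gene's mean over 8 libraries, for the 42 genes in rows by role and the libraries in columns, IL-2 left of the line; red is above and blue below the mean. Fbl, Npm1 and Mybbp1a split cleanly at the line, Nolc1 is dark blue in library 48 and blue in library 44, and the darkest cells of Rrp1b and Dimt1 are libraries where the gene was listed at 0.

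Genes of the same pathway outside the 42 gave few calls. Of 97 further assembly genes (37 small subunit, 50 large subunit, 10 snoRNP assembly), all tested on the read scale, 9 rose (9.28%) and 1 fell, so that 10.3% were called in either direction, against 10.9% higher, 9.07% lower and 19.9% in either direction for all genes. The lists had together a median log2 difference of 0.11, and differences were positive for 63 of the 97 genes (64.9%, against 48.6% of all genes). At an unadjusted p under 0.05, 21 of the 97 were higher and 2 lower (limma). In the small subunit list 3 of 37 rose and 0 fell, with 8 higher and 1 lower at an unadjusted p under 0.05 (limma). Utp14a had 472, 464, 482 and 454 normalised reads with IL-2, against 409, 357, 325 and 307 in controls, and Utp18 had 414, 455, 401 and 378 with IL-2 and 240.5, 342, 211 and 329.6 in controls; both belong to the processome (limma adjusted p = 0.0153 and 0.0169 on the deposited scale). In the large subunit list 5 of 50 rose and 1 fell.

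The rises of that list with the smallest p were Noc2l, whose yeast counterpart acts in 60S export, and Ebna1bp2, a nucleolar assembly factor. Noc2l had 1180.5, 1490.4, 1244 and 1222 normalised reads with IL-2, against 900.3, 940.4, 1053 and 938 in controls (limma adjusted p = 0.00509), and Ebna1bp2 was 1.57-fold higher (limma adjusted p = 0.0192). The gene that fell was the helicase gene Ddx24, with 1247, 1361, 1327 and 1231 reads in IL-2 libraries, against 1631, 1533, 1601 and 1572 in controls (limma log2 difference -0.20 ± 0.05 SE, adjusted p = 0.00732). Its groups did not overlap.

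The exosome, which trims the ends of rRNA precursors, gave 1 rise and 0 falls among 14 tested on the read scale (7.14% higher, against 10.9% of all genes). Of the 14, 3 were higher and 0 lower at an unadjusted p under 0.05 (limma). The gene that rose, Exosc8, had 223, 208, 235 and 288 normalised reads with IL-2, against 200.3, 137, 140.4 and 156 in controls (limma adjusted p = 0.0338 on the read scale). On the deposited scale without a filter it did not pass (limma adjusted p = 0.0522), and 0 of the 14 exosome genes did, with 3 higher and 0 lower at an unadjusted p under 0.05. Of 13 further polymerase I genes, which take in its other subunits, SL1 and subunits shared with other polymerases, 0 passed, with 2 higher and 1 lower at an unadjusted p under 0.05. Of 15 polymerase III genes 0 passed, with 0 higher and 1 lower at an unadjusted p under 0.05 (limma, read scale). Their median log2 difference was 0.00.

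Genes known to restrain nucleolar output gave 0 rises and 1 fall among 10, near the 9.07% of all genes that passed as lower, with 0 higher and 2 lower at an unadjusted p under 0.05 (limma, read scale). Rb1, the retinoblastoma gene, whose product binds UBF and holds polymerase I back, had 561, 509, 525 and 668 normalised reads with IL-2, against 955, 963, 999 and 1038 in controls. It was 1.75-fold lower with IL-2 (limma log2 difference -0.45 ± 0.06 SE on the deposited scale, adjusted p = 7.46e-05). In the Myc network 1 of 8 genes rose and 1 fell (25.0% in either direction, against 19.9% of all genes on the read scale). Myc had 692, 1020.5, 1079 and 895 reads in IL-2 libraries, against 349.6, 432, 297 and 389.9 in controls (2.51-fold, limma adjusted p = 6.17e-05). Mxd4, which encodes an opponent of Myc at E-boxes, had 905, 715, 1189 and 1048 reads with IL-2 and 1429, 1365, 1455 and 1550.0 in controls (limma adjusted p = 0.00310). Among the 14 proliferation genes 12 rose and 0 fell, Mcm3 2.07-fold and Mcm7 2.17-fold, with a median log2 difference of 0.97.

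**Figure D4:**
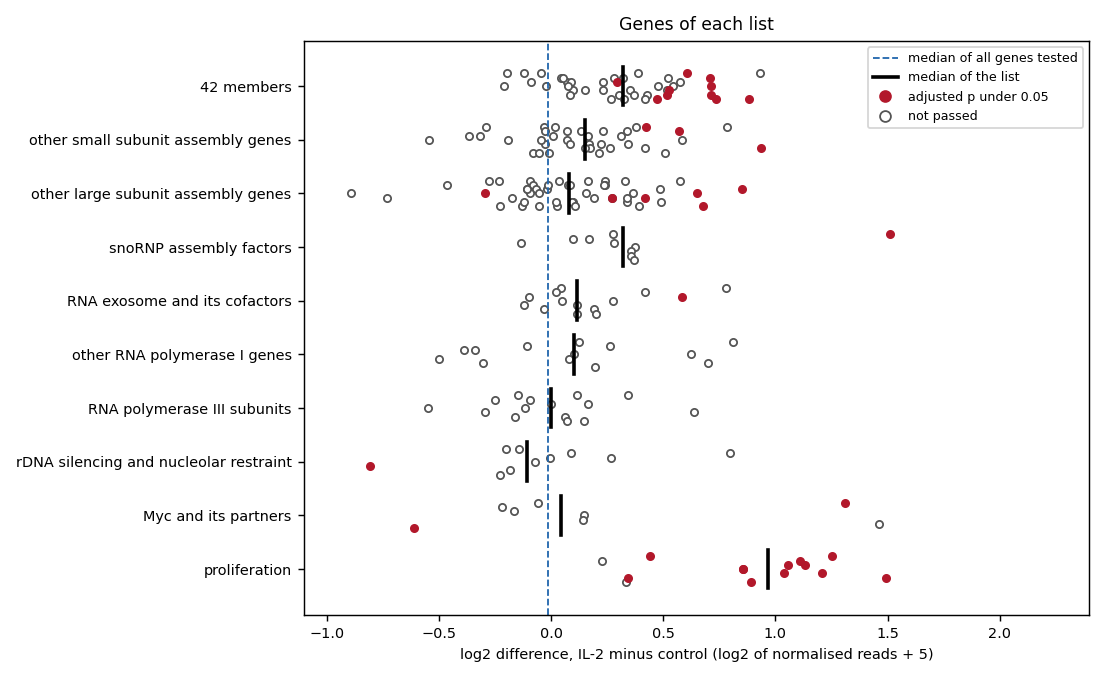
Log2 difference, IL-2 minus control, of each gene on the log2 scale of normalised reads plus 5, by list; red points passed an adjusted p of 0.05 (limma), black bars are list medians and the dashed line is the median of all 10777 genes tested. The 42 genes have a median of 0.32, the other small and large subunit lists 0.15 and 0.08, and the proliferation list 0.97.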

How the data were processed

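RNA of flow-sorted spleen Tregs was made into stranded total RNA libraries with a low-input kit, per the labels' protocols. The authors deposited 1 table of variance-stabilised log2 values, and the submitters' processing notes name Salmon, DESeq2 and GRCm39, with no settings. Annotation and filters are not stated there. Its lowest value, 8.69, stands for 0 reads. Normalised reads were recovered as (y - c) squared over y, with y and c the values and the lowest value raised from log2, which inverts the parametric variance-stabilising formula. With the commonest value above 0 taken as 1 read, 34 of the 40 commonest values of the 8 libraries were whole multiples within 0.001. Estimated counts need not be whole, so no count test was run. Counting error limits genes of few reads: 1 unit above the lowest value is 206 normalised reads.

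Genes with at least 4 of 8 libraries at least 1 above the lowest value (5261) were fitted on the deposited scale with limma (trend, no covariates) and Benjamini-Hochberg adjustment at 0.05. On the read scale, log2(normalised reads + 5), limma was run on the 10777 genes reaching 10 reads in 4 or more libraries. Folds are ratios of group means of normalised reads, and the deposited scale compresses them. The limma step was tested on simulated data. The alternatives were quantile normalization, median centring, a filter at 2 above the lowest value or none at all, limma without trend, robust or with array weights, log2 reads plus 1, and leaving out each library. Leaving out libraries on the read scale was added after seeing the data.

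The 42 genes and the lists were chosen with earlier results of these data known. One marker of the lists is not reported here. Values in every library are given for the 3 genes of each role with the smallest p, for Polr1a, Polr1b, Ubtf, Rrn3 and Taf1d, for the 2 largest and 2 smallest differences and for any that fell, and from each further list for up to 2 genes past the threshold in each direction. Of the genes from further lists, Ebna1bp2, Mcm3 and Mcm7 are given by their folds and not by library. Nolc1, Ncl, Bysl, Polr1c, Polr1e, Dimt1, Rrp1b and Shq1 were picked for per-library or named values after the values were seen. Promoter sequences came from RefSeq on GRCm38.p6, another build than the authors', and the coordinates of the promoter windows are on that build. The software was Python 3.11.15 (pandas 2.3.3, numpy 2.4.6, matplotlib 3.10.9) and limma 3.58.1 in R 4.3.3.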

Additional observations from a re-analysis of the deposited data

Results flagged for a closer look

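In 4 of 84 sets of 4 libraries (42 genes in each group), 1 library stood apart from the other 3 by more than Dixon's 95% limit for 4 values. Chance flags about 1 in 20 such sets. Bop1 had 458 normalised reads in IL-2 library 42, against 332 to 344 in the other IL-2 libraries. Dimt1 was listed at 0 in IL-2 library 41, against 30.1 to 32.2. Polr1e had 141 in IL-2 library 43, against 82.4 to 91.0. Mybbp1a had 775 in control library 46, against 828 to 834 in the other controls.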

How the results depend on the processing

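No paired analysis was possible because the IL-2 and control libraries share no replicate numbers. The 42 genes gave 8 calls on the deposited scale, 4 with the stricter filter (5 of them then tested) and 7 to 10 under the other planned settings that kept all libraries. They gave 6 to 9 calls when a library was left out on the deposited scale and 6 to 11 on the read scale, where the full set gave 10. Every one of these calls was higher with IL-2. Over all genes the stricter filter gave 737 calls, because 1519 genes were tested, against 1650, and leaving out a library gave 1378 to 1535. With all libraries, Npm1, Mybbp1a, Fbl, Dkc1 and Polr1d passed under every alternative run for them. They also passed without each library on the deposited scale. For these genes, and for Tsr1, Ddx21 and Ncl, the read-scale fits without a library were only counted in total. Calls lost there are therefore not named by gene. Tsr1, Ddx21, Nhp2, Bysl, Polr1e and Ncl each lost their call in at least 1 alternative, as given with each gene, and Ncl also with median centring (adjusted p = 0.0561) and without a filter (adjusted p = 0.0717). Nop56 passed without IL-2 library 44 and with array weights (limma adjusted p = 0.0370). The log2 difference of Ubtf on the deposited scale ran from -0.08 to 0.00 and turned positive without control library 47. No call of a named gene changed sign. The intervals of Rrp1b (-2.71 to 2.53) and Dimt1 (-1.54 to 1.13, log2 read scale), both listed at 0 in a library, were wide enough to hold a difference of the size seen for Fbl.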
